A study of Mus musculus with 4 samples.

Results

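The genes described here are 10 of the activin signalling pathway: the receptor genes Acvr1c, Acvr1b, Acvr2a and Acvr2b, the ligand subunit genes Inhba and Inhbb, the follistatin gene Fst, and the signal transducer genes Smad2, Smad3 and Smad7. They were taken by symbol from the array annotation, which gave each of the 10 exactly 1 single-gene probeset (a group of probes for 1 transcript) among 22180 genes tested. Had a gene had several, the brightest over the 4 arrays would have stood for it. No measured level was therefore needed for that step, but the 10 genes were chosen by their pathway with the earlier Tg and WT values of Acvr1c and the others known. Their differences between the groups are given as a description and are not independent evidence.

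Pancreatic islets, the clusters of endocrine cells that release insulin and glucagon, came from transgenic (Tg) mice, which carry a GPR41 transgene, and from WT littermates. Both groups were C57BL/6 mice aged 5 to 6 months, their islets were kept in RPMI medium before RNA purification, and each group had 2 arrays that the titles call biological replicates. GPR41 is a receptor for short-chain fatty acids, and the study asked which islet genes go with it. The labels do not give the promoter or the cells that drive the transgene, the number of founder lines or whether islets of several mice were pooled, so p-values measure only the spread between these arrays.

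Activins are dimers of inhibin beta subunits. They bind a type II receptor (the products of Acvr2a or Acvr2b), which activates a type I receptor, either ALK4 (Acvr1b) or ALK7 (Acvr1c). The activated type I receptor phosphorylates Smad2 and Smad3, and these enter the nucleus and change transcription. Follistatin binds activins outside the cell, and Smad7 blocks the receptors from inside. In mice, ALK7 is present in beta cells and adipocytes, and in islets it is known as a restraint on insulin secretion, with activin B, a dimer of the Inhbb product, among its ligands.

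All values are log2 array signals, for which a difference of 1 is a change of 2-fold. Array medians lay between 6.43 and 6.47, and Pearson's r across probesets was 0.994 between the Tg arrays, 0.991 between the WT arrays and 0.986 to 0.987 across the groups (probesets are no replicates). Ffar3, the gene of GPR41, stood at 11.02 and 10.98 on the Tg arrays, against 7.09 and 6.47 on the WT arrays (difference 4.22, SE 0.21, adjusted p = 0.0020 in limma), so it was higher on both arrays labelled Tg. The hormone genes Ins2 (12.52 and 12.59 in Tg, against 12.57 and 12.46 in WT) and Gcg (13.45 and 13.50 in Tg, against 13.64 and 13.61 in WT) were near the top of the range of every array.

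The upstream windows of both type I receptor genes and of Inhbb are shown because Acvr1c and Inhbb had the largest differences of the 10 genes and Acvr1b encodes the other type I receptor of activins. Each holds the 250 bases before an annotated start, read from RefSeq on build GRCm38.p6, 5′ to 3′ on the strand of the gene, and capitals mark CpG dinucleotides. Acvr1c has 2 annotated starts, both on the minus strand of chromosome 2, at chr2:58357759-58358008 and chr2:58324808-58325057. The Acvr1b window is at chr15:101173822-101174071 on the plus strand, and that of Inhbb at chr1:119422249-119422498 on the minus strand.
Acvr1c, first start: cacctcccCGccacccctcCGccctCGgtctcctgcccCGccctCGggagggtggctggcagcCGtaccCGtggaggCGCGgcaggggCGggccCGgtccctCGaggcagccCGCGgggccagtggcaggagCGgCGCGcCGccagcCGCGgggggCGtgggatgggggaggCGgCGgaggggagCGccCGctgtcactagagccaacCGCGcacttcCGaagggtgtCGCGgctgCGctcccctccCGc
Acvr1c, second start: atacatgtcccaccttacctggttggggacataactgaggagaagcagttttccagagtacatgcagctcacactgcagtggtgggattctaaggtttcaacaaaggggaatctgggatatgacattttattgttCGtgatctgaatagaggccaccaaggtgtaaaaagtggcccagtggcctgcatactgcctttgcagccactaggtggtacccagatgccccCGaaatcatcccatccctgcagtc
Acvr1b: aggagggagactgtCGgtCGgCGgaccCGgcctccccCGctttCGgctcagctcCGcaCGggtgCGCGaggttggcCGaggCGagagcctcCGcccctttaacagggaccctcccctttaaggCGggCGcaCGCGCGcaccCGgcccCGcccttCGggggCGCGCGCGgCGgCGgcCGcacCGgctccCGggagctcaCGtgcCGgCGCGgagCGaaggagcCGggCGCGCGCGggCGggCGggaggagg
Inhbb: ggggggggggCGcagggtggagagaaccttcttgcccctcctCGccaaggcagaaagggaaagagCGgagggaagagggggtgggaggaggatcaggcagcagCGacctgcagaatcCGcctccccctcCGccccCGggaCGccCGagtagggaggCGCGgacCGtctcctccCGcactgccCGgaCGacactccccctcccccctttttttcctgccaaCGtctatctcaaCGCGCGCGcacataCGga

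The first Acvr1c window held 32 CpGs and was 79.6% G and C, and the Acvr1b window held 42 and was 78.8% G and C. The second Acvr1c window held 2 CpGs and was 49.6% G and C, against medians of 6 CpGs and 52.4% over 32851 such windows in the table. The Inhbb window held 21 CpGs. Since 1 probeset reads Acvr1c, transcripts of its 2 starts could not be told apart. A search on both strands covered the Smad palindrome GTCTAGAC, the shorter Smad motif CAGAC, the STAT motif TTCNNNGAA and the cAMP response element TGACGTCA. None of the 4 motifs was in the windows of Acvr1c, Acvr1b, Inhba, Inhbb or Smad3, and CAGAC was found 1 time each upstream of Acvr2a and Acvr2b. Over all windows, 42.2% held CAGAC, 7.02% TTCNNNGAA, 1.55% TGACGTCA and 0.167% GTCTAGAC. These letters were read in 7 of the 10 genes, and their presence or absence in a window is a description only. No window of Fst, Smad2 or Smad7 was searched, so the presence of the 4 motifs upstream of these genes was not tested.

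Among the receptors, Acvr1c, which encodes ALK7, rose in Tg islets. Its log2 values were 8.89 and 8.56 on the Tg arrays, against 7.45 and 7.02 on the WT arrays. The lower Tg array lay 1.11 above the higher WT array, a gap larger than the 0.33 between the Tg arrays and the 0.43 between the WT arrays. The difference was 1.49 (SE 0.19, 95% confidence interval 1.02 to 1.96), or 2.81-fold, with an adjusted p of 0.039 in limma over all 22180 genes. It was the only one of the 10 genes past an adjusted p of 0.05, where 0.897% of all tested genes passed, 0.672% as higher and 0.225% as lower in Tg. Its difference ranked 89th and its p 155th among all genes, and 199 genes passed, so the call lay close to the threshold. It was lost without Tg replicate 1 (difference 1.32, adjusted p = 0.209), without Tg replicate 2 (1.65, adjusted p = 0.114) and without WT replicate 2 (1.27, adjusted p = 0.093), and held without WT replicate 1 (1.71, adjusted p = 0.045). An ordinary linear model without variance moderation also did not call it (adjusted p = 0.551). That model called 0 of all tested genes, and Ffar3 had an adjusted p of 0.472 in it, so it says nothing about Acvr1c in particular.

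**Figure D1:**
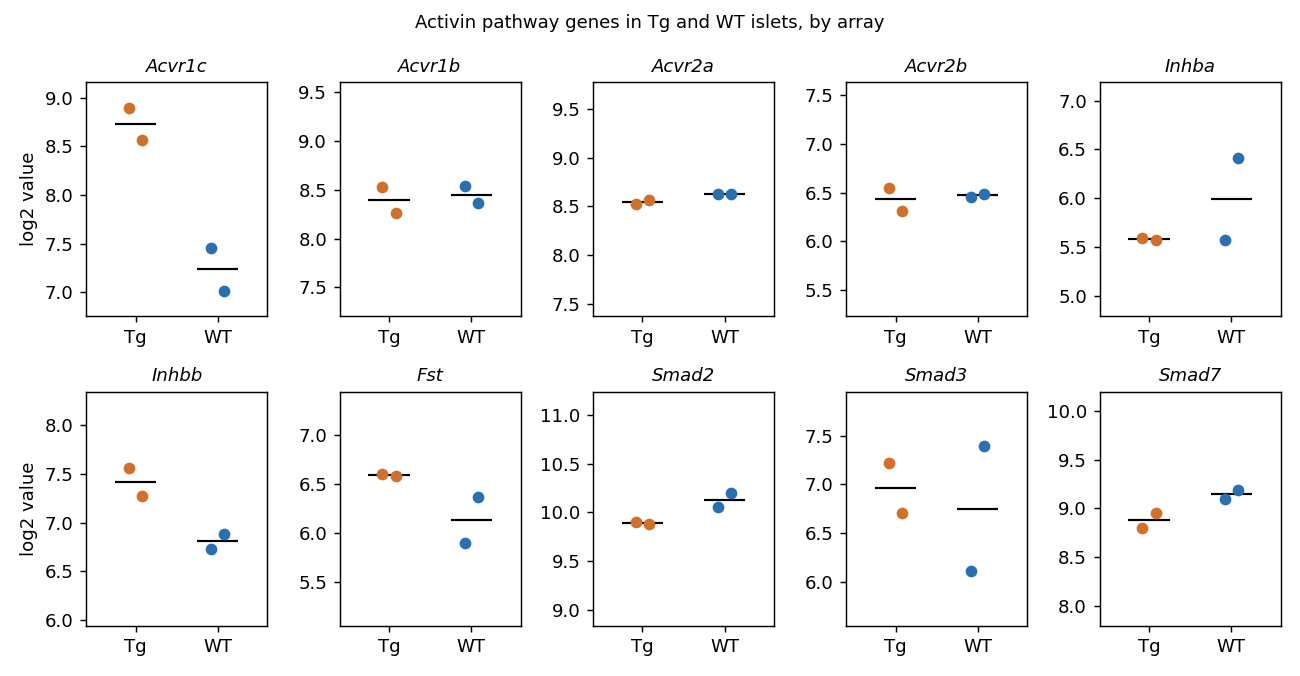
Log2 array values (vertical axis, with the same span in each panel) of the 10 activin pathway genes, with the 2 Tg arrays left of the 2 WT arrays, a point for each array and a line at each group mean. Acvr1c is separated by 1.11 between the nearest Tg and WT arrays, while Smad3 and Inhba differ most between the WT arrays themselves.

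The other type I receptor of activins did not pass the test. Acvr1b, encoding ALK4, had 8.53 and 8.27 on the Tg arrays, against 8.54 and 8.36 on the WT arrays, a difference of -0.05 (SE 0.14, 95% confidence interval -0.39 to 0.28), and its groups overlapped. The within-array log ratio of Acvr1c to Acvr1b was thus 1.54 higher in Tg than in WT, and each Tg array lay above each WT array. This ratio was chosen after the Acvr1c values were seen and has no test, since an exact two-sided permutation of 2 arrays against 2 cannot go below 0.333.

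Neither type II receptor gene, whose products first bind activin, passed the test. Acvr2a had 8.52 and 8.57 on the Tg arrays, against 8.62 and 8.62 on the WT arrays. The Tg values were both lower, but the difference was only -0.08 (SE 0.10, 95% confidence interval -0.33 to 0.17). Acvr2b had 6.55 and 6.31 on the Tg arrays, against 6.45 and 6.49 on the WT arrays, and the Tg values lay on both sides of the WT ones (difference -0.04, 95% confidence interval -0.34 to 0.26). With 2 arrays a group, changes within these intervals remain possible.

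Among the ligand subunits, Inhbb, which makes activin B, had 7.56 and 7.28 on the Tg arrays, against 6.73 and 6.89 on the WT arrays. Both Tg arrays were higher, and the nearest Tg and WT values were 0.39 apart. The difference was 0.61 (SE 0.14, 95% confidence interval 0.27 to 0.95), or 1.53-fold, with an unadjusted p of 0.0049 and an adjusted p of 0.163, so it did not pass. A looser limit of 1.5-fold and an unadjusted p under 0.05, uncorrected for multiple tests, was met by 2 of the 10 genes, Inhbb and Acvr1c, both higher in Tg. Of all tested genes, 3.48% met it, 2.35% as higher and 1.13% as lower in Tg.

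Inhba, which makes activin A, had 5.59 and 5.57 on the Tg arrays, against 5.57 and 6.41 on the WT arrays. Only WT replicate 2 stood apart, and the other WT array was level with the Tg arrays. The difference of -0.41 (SE 0.27, 95% confidence interval -1.07 to 0.25) did not pass, and it was 0.01 without WT replicate 2. All 4 Inhba values were below the median of their array. Inha, whose alpha subunit pairs with beta subunits to make inhibins, the antagonists of activins, belongs to the wider list. It had 8.59 and 8.51 on the Tg arrays, against 9.14 and 8.92 on the WT arrays, with a difference of -0.48 (SE 0.12, unadjusted p = 0.0083, adjusted p = 0.209) that did not pass.

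Fst, the gene of the activin-binding protein follistatin, had 6.60 and 6.58 on the Tg arrays, against 5.90 and 6.37 on the WT arrays. Both Tg values were higher, although the 0.48 between the WT arrays exceeded the 0.21 gap between the groups. Its difference of 0.46 (SE 0.17, 95% confidence interval 0.03 to 0.88) had an adjusted p of 0.393. It was 0.22 without WT replicate 1 and 0.69 without WT replicate 2.

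None of the 3 Smad genes passed the test. Smad2 had 9.90 and 9.88 on the Tg arrays, against 10.05 and 10.20 on the WT arrays (difference -0.24, SE 0.11, adjusted p = 0.481). Smad7, the inhibitory Smad and itself a known target of Smad signalling, had 8.80 and 8.95 on the Tg arrays, against 9.10 and 9.19 on the WT arrays (difference -0.27, SE 0.11, adjusted p = 0.440). In both genes each Tg array lay below each WT array by about 0.15, a gap close to the larger spread within a group.

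Smad3 had 7.22 and 6.71 on the Tg arrays, against 6.11 and 7.39 on the WT arrays. The WT arrays, 1.29 apart, enclosed both Tg values, so the groups overlapped fully. The difference of 0.21 (SE 0.42, 95% confidence interval -0.83 to 1.25) was the least precise of the 10. It was 0.86 without WT replicate 2 and -0.43 without WT replicate 1. The order of the arrays, with WT replicate 2 highest, then Tg replicate 1, Tg replicate 2 and WT replicate 1, was that of 6 markers of acinar cells, which make digestive enzymes. Their mean log2 value was 11.23 and 10.87 on the Tg arrays, against 10.53 and 11.41 on the WT arrays. The mean of 4 duct markers, 7.97 and 7.80 on the Tg arrays, against 6.88 and 8.04 on the WT arrays, had the same order. Of single markers, 5 of 6 acinar genes had it, Bhlha15 being lowest on WT replicate 2, and 2 of 4 duct genes, Krt19 and Sox9. The share of all tested genes with this order was not counted. Krt7 was lowest on WT replicate 2, and Cftr rose in Tg, with 7.80 and 7.75 on the Tg arrays, against 5.13 and 5.83 on the WT arrays (adjusted p = 0.021 in limma). Inhba, also highest on WT replicate 2 but lowest on Tg replicate 2, and Fst, highest on Tg replicate 1, did not have the array order of Smad3. The part of exocrine cells in the Smad3, Inhba and Fst values was not tested.

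Over the 10 genes, 4 differences were positive and 6 negative, with a median of -0.05, beside -0.02 over all tested genes. Groups did not overlap in 6 of the 10, 3 with Tg higher (Acvr1c, Inhbb and Fst) and 3 with Tg lower (Acvr2a, Smad2 and Smad7). Over all tested genes, 42.3% did not overlap, 18.6% with Tg higher and 23.7% with Tg lower. Of the 10 genes, 3 had an unadjusted p under 0.05, beside 11.8% of all genes.

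**Figure D2:**
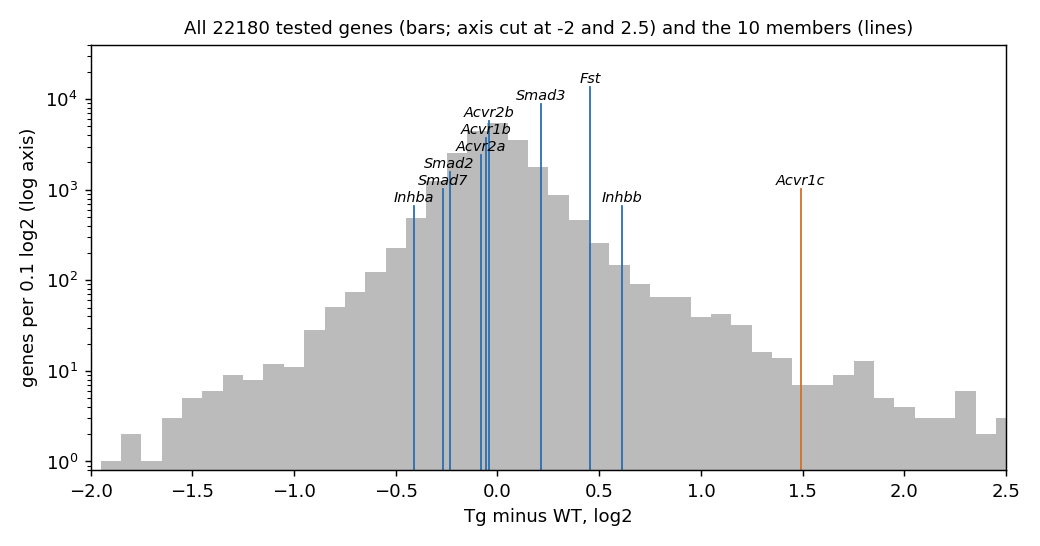
Histogram of the Tg minus WT differences (horizontal axis, log2) of 22180 tested genes, with gene counts on a log axis and the 10 activin pathway genes as lines. Acvr1c, at 1.49 and in orange, lies far in the upper tail, and the other genes, in blue, lie between -0.41 and 0.61.

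The wider family of transforming growth factor beta ligands, receptors and Smads, listed by role, had 68 measured genes of 74 listed. In limma, 0 of the 68 passed an adjusted p of 0.05 in either direction, beside 0.897% of all tested genes. At so small a share, 0 in this list, or in its parts by role given below, tells little. Of the 68, 12 had an unadjusted p under 0.05, beside 11.8% of all tested genes. Without WT replicate 1, 1 passed, the corepressor gene Tgif1 (difference -1.14, adjusted p = 0.049), and its 4 values were 7.74 and 7.77 on the Tg arrays, against 7.42 and 8.89 on the WT arrays. Tgif1 was outside the naming rule and is named for this call. Without variance moderation no gene of the whole table passed, so that model says nothing about the list. Differences were positive in 35 and negative in 33, with a median of 0.02. Groups did not overlap in 30 of the 68, 16 with Tg higher and 14 with Tg lower, beside 42.3% of all tested genes.

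None of the 15 other ligand genes passed (median difference -0.08). Tgfb2, a transforming growth factor, had a difference of -0.49 (SE 0.18), with 6.49 and 6.28 on the Tg arrays, against 6.65 and 7.10 on the WT arrays. Bmp4, a bone morphogenetic protein, had one of 0.37 (SE 0.14). Gdf3, which encodes another known ALK7 ligand, had 5.80 and 5.70 on the Tg arrays, against 5.67 and 5.75 on the WT arrays, and was outside the naming rule.

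Of 12 other receptor genes, 0 passed (median 0.08). Eng, the endothelial co-receptor endoglin, had 10.26 and 9.93 on the Tg arrays, against 9.68 and 9.52 on the WT arrays (difference 0.49, SE 0.15). Acvrl1, the endothelial type I receptor ALK1, had a difference of 0.35 (SE 0.12). Tgfbr1, the type I receptor of transforming growth factor beta, had 8.77 and 8.63 on the Tg arrays, against 9.07 and 8.97 on the WT arrays (difference -0.32, SE 0.11). Acvr1, the type I receptor ALK2, had 8.16 and 8.12 on the Tg arrays, against 8.08 and 8.30 on the WT arrays, and was named for its kinship to Acvr1c after its values were seen.

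Among 9 extracellular inhibitors, 0 passed (median -0.07). Grem1, which encodes the antagonist gremlin of bone morphogenetic proteins, had 6.99 and 7.54 on the Tg arrays, against 6.47 and 6.33 on the WT arrays (difference 0.87, SE 0.20, adjusted p = 0.163). Fstl1, follistatin-like 1, had a difference of 0.49 (SE 0.18), and the Nodal antagonist gene Lefty2 one of -0.26 (SE 0.11).

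The 8 other Smads and their partners had a median of -0.15, and 0 passed. Smad9, a transducer of bone morphogenetic proteins, had 7.19 and 7.10 on the Tg arrays, against 7.82 and 7.45 on the WT arrays (difference -0.49, SE 0.15). Smad4, the shared partner of the receptor-activated Smads, had a difference of -0.16 (SE 0.10), and Smad1 one of -0.14 (SE 0.10).

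Of 9 intracellular inhibitors, 0 passed (median -0.02), with Smad6 at 0.26 (SE 0.10), the corepressor gene Ski at -0.27 (SE 0.14) and Pmepa1 at 0.15 (SE 0.15). Among 10 known Smad targets, 8 differences were positive and 2 negative (median 0.11), and 0 passed. Over all tested genes, 10146 differences were positive and 12034 negative. The list was not limited to targets of Smad2 and Smad3. Tgfbi, a matrix protein induced by transforming growth factor beta, had 9.99 and 9.60 on the Tg arrays, against 9.28 and 9.08 on the WT arrays (difference 0.62, SE 0.16, adjusted p = 0.223). Id4 had 7.07 and 6.98 on the Tg arrays, against 6.46 and 6.63 on the WT arrays (difference 0.48, SE 0.11, adjusted p = 0.181), and Ldlrad4 had a difference of 0.25. Lipolysis genes that are linked to ALK7 in mouse fat did not pass either, with 0 of 5. Pnpla2, a triglyceride lipase gene, had a difference of -0.23, Pparg one of 0.12 and Mgll one of -0.20.

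**Figure D3:**
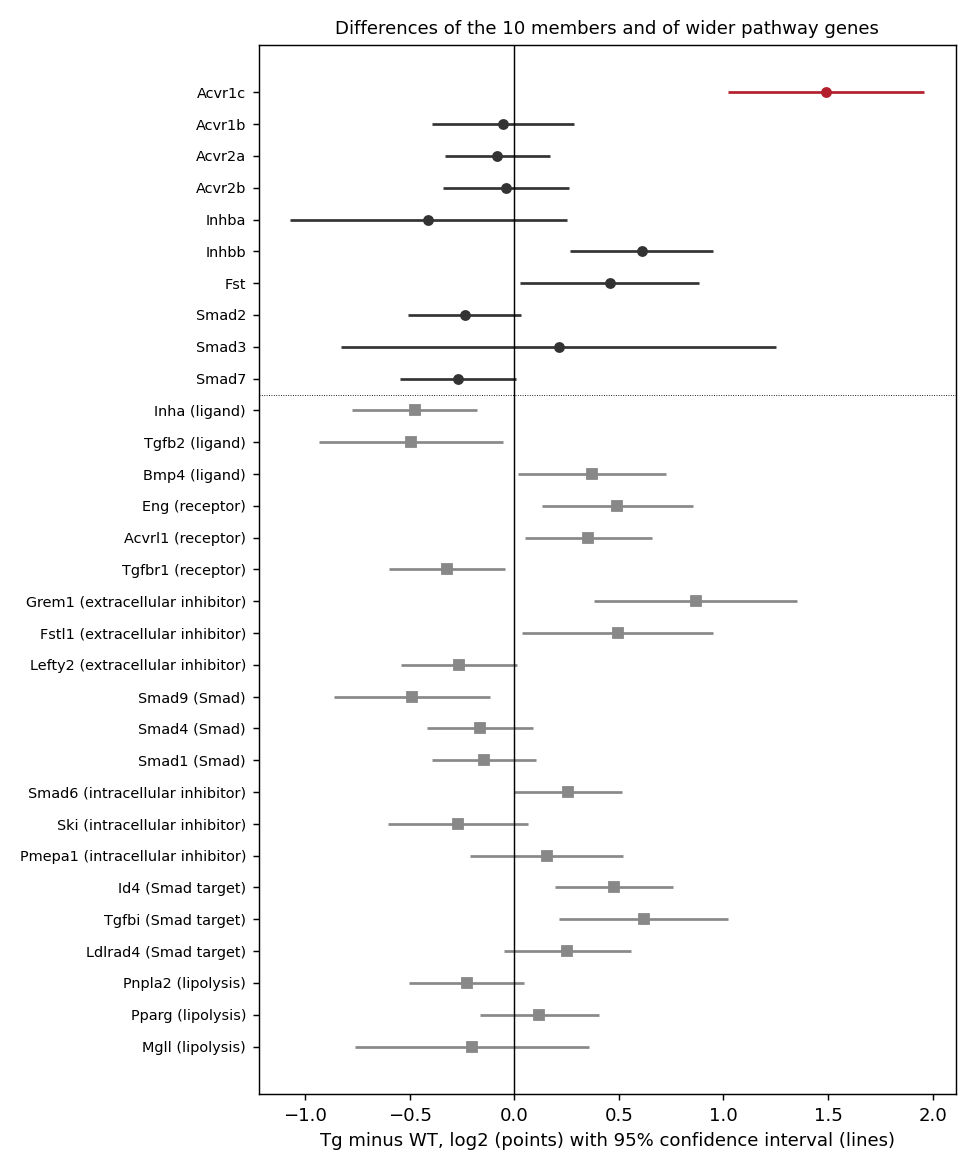
Tg minus WT differences (horizontal axis, log2) with 95% confidence intervals from limma for the 10 activin pathway genes (circles, above the dotted line) and for the wider pathway genes named by role (squares). Acvr1c, in red, is the only one shown that passed an adjusted p of 0.05, with an interval of 1.02 to 1.96, next to 0.27 to 0.95 for Inhbb.

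Of the 5 genes whose values over the 4 arrays were most like those of Acvr1c, 3 (Ccr7, Ly86 and Stat4) are known from leukocytes. Likeness was the root mean square distance between the 4 log2 values of a gene and those of Acvr1c, each centred on its own mean, among 10594 genes brighter than the median, symbols of predicted genes (Gm numbers, Rik and LOC) left out. The nearest was Ccr7, a chemokine receptor gene of lymphocytes and dendritic cells, at a distance of 0.039. Its values were 8.41 and 8.19 on the Tg arrays, against 7.01 and 6.59 on the WT arrays. Cpne4, which encodes a calcium-dependent lipid-binding copine, followed at 0.041, then Ly86, a surface protein gene of B cells and macrophages, at 0.067. Stat4, a transcription factor gene of interleukin 12 signalling, was at 0.087, and the adhesion receptor gene Adgrf5 at 0.115. Within the pathway, Inhbb was nearest, at 0.487, and Inhba farthest, at 1.06. With 4 arrays in 2 groups, any gene with a like difference comes near, so the distance is a description only.

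**Figure D4:**
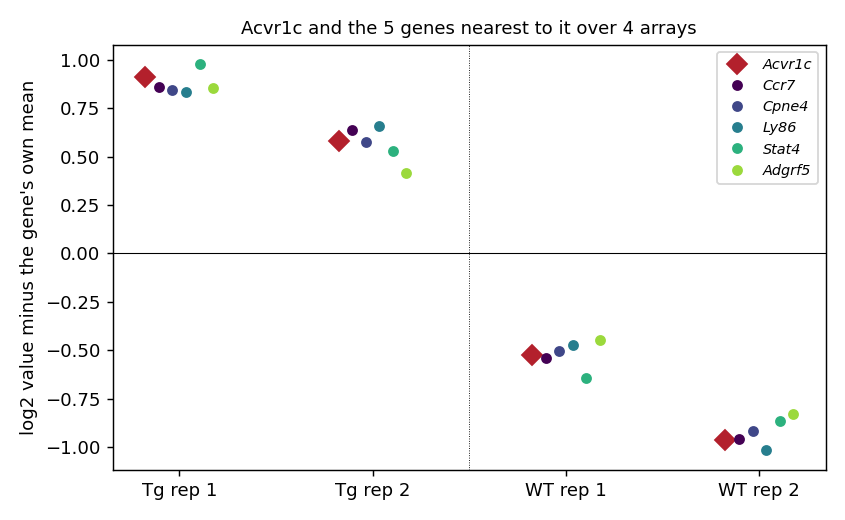
Log2 values centred on the mean of each gene (vertical axis) for Acvr1c (diamonds) and the 5 genes nearest to it (circles) on the 2 Tg and 2 WT arrays. Acvr1c and each of the 5 were highest on Tg replicate 1 (0.91 for Acvr1c) and lowest on WT replicate 2 (-0.96).

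The mean levels of immune and endothelial markers ordered the arrays as Acvr1c did. Tg replicate 1 was highest, then Tg replicate 2, WT replicate 1 and WT replicate 2. Of single markers, 6 of 9 immune and 8 of 9 endothelial genes had that order. The mean of adipocyte markers had it too, although 0 of its 5 genes did, and Fabp4 had by far the largest difference among them (1.07). The means of the other lists did not have that order. The share of all tested genes with that order was not counted, and a gene higher on both Tg arrays has few possible orders. The mean log2 value of 9 immune cell markers was 8.41 and 8.02 on the Tg arrays, against 7.46 and 7.21 on the WT arrays. All 9 differences were positive (median 0.90) and 8 did not overlap, beside 42.3% of all tested genes. None passed an adjusted p of 0.05, beside 0.897% of all genes, and 7 had an unadjusted p under 0.05, beside 11.8%. Ptprc, the pan-leukocyte marker CD45, had 8.60 and 7.44 on the Tg arrays, against 6.53 and 6.35 on the WT arrays. The mean of 9 endothelial markers was 8.91 and 8.59 on the Tg arrays, against 8.37 and 8.19 on the WT arrays, with 9 positive differences (median 0.47), 0 past the adjusted threshold and 7 at an unadjusted p under 0.05, beside 0.897% and 11.8% of all genes.

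Beta cell markers did not share that order. Their mean over 8 genes was 10.98 and 11.07 on the Tg arrays, against 11.24 and 11.00 on the WT arrays, with a median difference of -0.08. Differences were positive in 3 and negative in 5. None passed an adjusted p of 0.05, and 1 had an unadjusted p under 0.05, beside 0.897% and 11.8% of all tested genes. That gene, Ucn3, had 10.89 and 11.03 on the Tg arrays, against 11.70 and 11.41 on the WT arrays (difference -0.60, SE 0.14, adjusted p = 0.170 in limma). The 4 alpha cell markers were all lower in Tg without passing, and 3 had an unadjusted p under 0.05. Their means were 9.84 and 10.21 on the Tg arrays, against 10.67 and 10.44 on the WT arrays. The mean of 5 adipocyte markers was 5.92 and 5.86 on the Tg arrays, against 5.64 and 5.61 on the WT arrays, and 0 of the 5 passed. Differences were positive in 4 of them and negative in 1 (median 0.13). Among them Adipoq, the adiponectin gene, lay below the first quartile of every array, at 4.46 and 4.45 in Tg, against 4.30 and 4.35 in WT. Plin1 was lower on both Tg arrays, with 5.53 and 5.55, against 5.69 and 5.67 on the WT arrays. Lep differed by 0.16 and Cidec by 0.10, and their groups overlapped. Fabp4, a lipid carrier gene that endothelial cells also use, had 9.38 and 8.78 on the Tg arrays, against 7.84 and 8.18 on the WT arrays (difference 1.07, SE 0.22, adjusted p = 0.138). The mean of 10 mesenchymal markers was also higher on both Tg arrays, with 7.06 and 6.97, against 6.62 and 6.75 on the WT arrays. Of these markers, 9 had a positive difference and 1 a negative one (median 0.17). Dcn had by far the largest, with 9.80 and 9.04 on the Tg arrays, against 7.49 and 7.76 on the WT arrays (difference 1.79, adjusted p = 0.054 in limma). Groups overlapped in 4 of the 10, 2 had an unadjusted p under 0.05, and 0 passed. The part of immune, endothelial, mesenchymal and adipose cells in the Acvr1c difference was not tested. In whole islets, fewer cells of a type and less RNA per cell cannot be told apart.

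**Figure D5:**
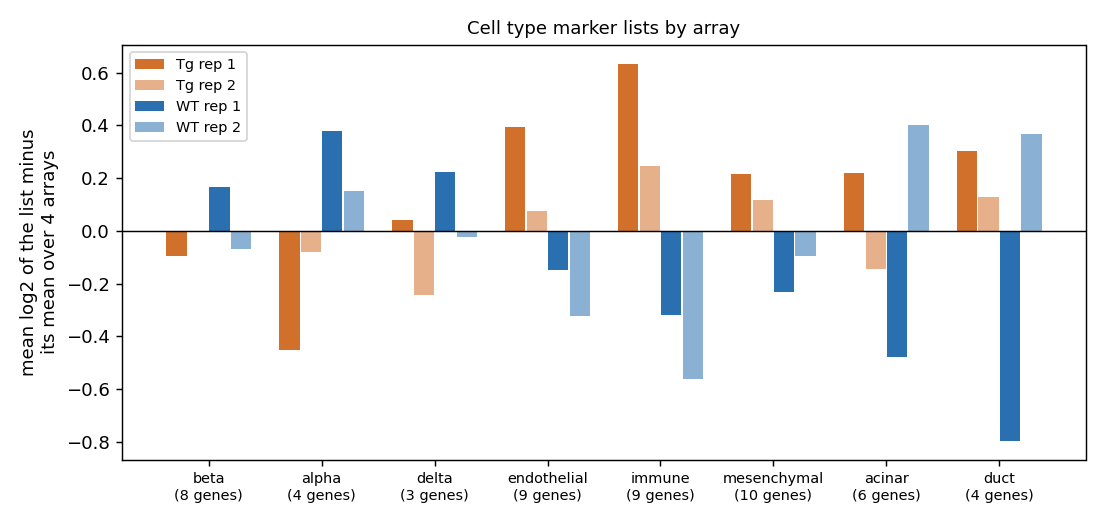
Mean log2 value of each cell type marker list minus its mean over the 4 arrays (vertical axis), with bars for Tg replicates 1 and 2 and WT replicates 1 and 2 from left to right. Immune, endothelial and mesenchymal lists are above 0 on both Tg arrays and below 0 on both WT arrays. Acinar and duct lists are highest on WT replicate 2 and lowest on WT replicate 1.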

How the data were processed

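Total RNA of 250 ng from each islet sample was labelled with biotin and hybridised to an Affymetrix Mouse Gene 2.0 ST array, per the labels' protocols and the series' design text. The authors deposited log2 values (2.87 to 13.9, the base being read from this range). Partek and RMA are named, without versions, by the submitters' processing notes. RMA corrects background, normalises arrays to a common distribution by quantiles and summarises probes, so differences near the background are compressed. Detection calls and batches were not given in the sources used here. Of 27037 probesets, the annotation paired 23521 with 1 gene symbol, 1814 with several and 1702 with none. The brightest single-symbol probeset stood for each gene, without a filter on dim genes, which left 22180 genes.

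Tg minus WT differences were fitted on all 4 arrays with limma 3.58.1 (lmFit, eBayes; R 4.3.3), with 2 residual and 3.76 prior degrees of freedom and Benjamini-Hochberg adjustment over all 22180 genes. The steps were tested on simulated data. The number of arrays limits the precision. The members and gene lists were chosen with earlier results of these data known. The text names all 10 members, any wider list gene past the threshold, the 3 others of each list with the smallest p, the 5 genes nearest to Acvr1c, and Ffar3, Ins2, Gcg, Sst and Ppy as checks. Sst differed by -0.32 and Ppy by 0.06 without passing. Listed genes that were not matched to a probeset of 1 gene were not analysed here. The remaining marker lists had median differences of -0.32 for delta cells, 0.06 for PP cells, 0.17 for mesenchymal, 0.12 for acinar, -0.02 for duct, 0.13 for adipocyte and -0.07 for Schwann cells. Of these, 1 duct marker, Cftr, passed. Alternatives were other probeset rules, a level filter, repeated normalisation, centring, other variance models, the replicate number as a block, and each array left out in turn.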

Additional observations from a re-analysis of the deposited data

How the results depend on the processing

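All alternatives were planned except those for Cytip, which were run after its values were seen. Acvr1c stayed higher in Tg in 13 of 13 alternatives (1.27 to 1.71), kept its call in 8 and lost it in 5, with adjusted p from 0.014 to 0.551. Without variance moderation its difference of 1.49 had an adjusted p of 0.551, and the counts were 0 genes and 0 of the 10 members past the adjusted threshold, with 1928 genes at an unadjusted p under 0.05 and 416 genes at the 1.5-fold limit, against 772. With the replicate block, the difference of 1.49 had an adjusted p of 0.086, and 24 genes, 23 of them shared, and 0 members passed. Deviations of same-numbered arrays had a correlation of -0.063 across genes, so the numbers are not shown to pair the arrays. With a robust prior and a variance trend, 347 genes passed against 199, with Acvr1c still past the threshold. With each array left out, 38 to 135 genes and 0 to 1 members passed, and 846 to 1078 genes met the 1.5-fold limit. A lone array is then assumed to vary like the other group. None of the other 9 members passed in any alternative, and 6 of their 114 recomputed differences turned the sign. With each array left out, Acvr1b lay between -0.19 and 0.077, Acvr2b between -0.16 and 0.077, Inhba between -0.83 and 0.010 and Smad3 between -0.43 and 0.86. Among the wider genes Pmepa1 lay between -0.023 and 0.33 and Mgll between -0.50 and 0.094. The cause was not tested beyond the smaller number of arrays. The filter at the median level removed Acvr2b, Inhba, Fst, Bmp4, Lefty2 and Mgll, so these have no value there.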

Other observations

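Genes beside Acvr1c on chromosome 2, looked up after the member values were seen, included 1 that passed the test. Cytip, which encodes a cytohesin-binding protein of leukocytes and is the nearest measured coding gene on 1 side, rose in Tg islets. It had 7.14 and 7.03 on the Tg arrays, against 5.17 and 5.66 on the WT arrays (difference 1.67, SE 0.18, adjusted p = 0.030 in limma). In 12 alternatives, run after its values were seen, its difference lay between 1.42 and 1.92, and the call was lost in 4, among them without Tg replicate 1 (adjusted p = 0.170) and without Tg replicate 2 (adjusted p = 0.117). Acvr1, the nearest on the other side, had a difference of -0.05 (SE 0.12). Of the next genes, Ermn was at 0.06, Galnt5 at -0.07, Upp2 at -0.25 and Ccdc148 at -0.09, and none of the 4 passed. Around Inhbb, the 6 nearest measured coding genes had differences between -0.27 and 0.02, and none passed, with Clasp1 at -0.27 and Tmem185b at 0.02.

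Probesets that name several genes, outside the comparison of single genes, included 3 with a wider pathway symbol. They differed by 0.13 for Gdf1 with Cers1, -0.26 for Bmpr2 with Gm20272 and -0.02 for Tgif2 with 5430405H02Rik, and none passed in a limma fit of all probesets.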
